A study of Mus musculus with 12 samples.

Results

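CD4 T cells of the KI genotype were compared before and after activation, and every locus with a measurable level is described here. The 6 libraries came from CD4 T cells of mouse spleen. 3 were made from naive KI cells and 3 from KI cells that had been stimulated for 16 h with anti-CD3 and anti-CD28 beads. No group is labelled as cultured for 16 h without beads, so stimulation and time in culture cannot be told apart. The altered allele of the KI genotype, the strain and the age of the mice are not given in the sources used here, and both groups carry the same genotype. Another 6 libraries, 3 naive and 3 activated, carry the genotype called KIKO and enter 1 paragraph only. No label says that the 3 libraries of a group came from separate mice, so p-values measure the spread between these libraries, which may be technical.

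Expression is given in FPKM, the number of fragments on a transcript relative to its length and to all fragments of the library. The files list each locus by events (transcript starts, ends and other parts). For each library the FPKM of all starts and of all ends were summed, the larger of these sums and the highest single event was taken as the level of the locus, and a locus without a line in a library was taken as 0. Loci with a level of at least 1 FPKM in at least 3 of the 6 libraries were kept, which gave 9215 of the 13119 loci listed in these libraries and of the 15125 listed in all 12. Of the 9215, 8074 reached 1 FPKM in all 6 libraries. Another 187 reached it in the 3 naive libraries alone, 192 in the 3 activated libraries alone and 762 in other patterns, and 3904 listed loci did not pass. The files name loci by symbol, and names were checked by exon and intron lengths. By length, 513 members matched a gene that the files do not name for them. Among these, the loci called Spry1 and Cd74 here carry names of other genes in the files, Rpl19 carries another identifier and Tpt1 no name. A locus that passed through its higher group alone had to differ, so the counts below describe the response and do not weigh its direction. Among genes named below, Ccl4, Cdk1, Cdkn1a, Cish, Egr3, Fos, Gapdh, Hk2, Il2, Lag3, Socs2, Spry1, Tnf, Tnfrsf9, Top2a and Uhrf1 were under 1 FPKM in every naive library and passed through the activated ones alone, and Prdm1 and Prf1 passed through the naive ones alone. Irf4, Il2ra, Nr4a1, Bhlhe40 and Cd74 did not reach 1 FPKM in every naive library and also needed the activated ones to pass. Klrd1, Ifi213, Irf7 and Trib3 likewise needed the naive ones. The values of all these genes are descriptions. A missing line need not mean an unexpressed gene: of all members 63 had no line in any naive library, Gapdh among them, a gene that every cell uses. Closest inside the limit lay Zfp93 and Kif20a, whose level in the library that decided their entry was 1.00007 and 1.00113 FPKM. Closest outside it were Cdca3 with 0.999 and Sema6c with 0.998 FPKM.

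Naive CD4 T cells are small resting cells that circulate through lymphoid organs and live on signals from the IL-7 receptor. Engagement of the T cell receptor together with CD28 starts calcium, MAP kinase and NF-kB signalling, which induces a wave of transcription factors, then surface receptors and cytokines. Over the following hours the cell enlarges, makes ribosomes, enzymes and mitochondria, leaves the resting state and prepares to copy its DNA. The libraries sample this course at 1 time point, before most cells of such cultures usually divide.

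The files listed 10374 to 10705 loci per KI library, and the levels summed to 323540 to 357099 FPKM in naive and 364049 to 380944 FPKM in activated libraries. The first principal component of log2(FPKM + 1) took up 86.2% of the variance, with the naive libraries on one side (-48.99 to -47.2) and the activated on the other, where activated replicate 1 lay nearer to the naive libraries (40.9) than replicates 2 and 3 (51.5 and 52.4). On the second component, with 4.89% of the variance, naive replicate 3 stood apart at -21.97 against 9.496 and 11.4 for the other naive libraries. The number of reads is unknown, so no counting interval can be given. Of 12 T cell markers 10 were listed in every library, with a summed level of 2138 to 2344 FPKM in naive and 1887 to 2085 FPKM in activated libraries. The other 2, Trac and Trbc1, were found at no searched locus, although CD4 T cells express the receptor's constant regions. Loci whose names the length check left mixed, unsure or on the opposite strand were not searched, so the files may still hold lines of such genes. A marker that was not found therefore does not show that its cell type was absent. Cd4 stood at 203, 186 and 221 FPKM in naive and 182, 171 and 182 FPKM in activated libraries. Of 14 B cell markers 4 were listed, and Ighm gave nearly all of their sum (111 to 140.3 FPKM in naive, 102 to 113 FPKM in activated libraries). Cd79a and Ms4a1 were not found at a searched locus. Of the CD8 T cell markers, Cd8b1 was at 6.51 to 8.12 FPKM in naive and 10.9 to 12.8 FPKM in activated libraries and Cd8a at or below 0.515 FPKM. No plasma cell, erythroid or platelet marker had a level at a searched locus. The 5 listed of 9 NK cell markers summed to 12.9 to 19.4 FPKM in naive and 1.37 to 2.22 FPKM in activated libraries, most of it from Klrd1 and Prf1. The 7 listed of 16 monocyte, macrophage and neutrophil markers summed to 3.52 to 4.90 FPKM and 0.354 to 0.844 FPKM. Among 11 dendritic cell markers only Cd74, which encodes the invariant chain of MHC class II, exceeded 2 FPKM. Its levels were 0.49, 0 and 1.61 FPKM in naive and 30.02, 29.02 and 29.9 FPKM in activated libraries, with the class II genes H2-Ab1 and H2-Eb1 at or below 0.838 FPKM throughout. Whether these small sums of other cell types bear on the genes described below was not tested. In bulk RNA, fewer cells of a type and less RNA per cell cannot be told apart.

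Most loci differed between naive and activated cells. Of the 9215 loci, 6120 (66.4%) differed between the groups, 3190 (34.6%) being higher and 2930 (31.8%) lower in activated cells (limma on log2(FPKM + 1), adjusted p under 0.05). All 3 activated values lay above or below all 3 naive values at 6587 loci (71.5%). With a log2 difference of at least 1 asked as well, 1399 loci (15.2%) were higher and 1066 (11.6%) lower. Differences above 3 were reached by 73 loci among the higher and 24 among the lower. The median difference was 0.91 at the higher and fell by 0.81 at the lower loci, on the log2(FPKM + 1) scale, which understates the change of low genes. As a share of the summed level, the higher loci went from 25.9% ± 0.0834 (SD, n = 3) to 48.8% ± 1.84 (SD, n = 3), and the lower loci from 34.6% ± 0.942 (SD, n = 3) to 16.5% ± 1.30 (SD, n = 3). FPKM are relative and RNA per cell is not among these data, so levels per cell cannot be read from them. Rescaling the libraries to an equal sum moved the median of all loci from 0.00 to -0.12. Each count of a gene group below is to be read against these shares of 34.6% and 31.8%, and some genes stand in more than 1 group. Counts also hold members at 1 FPKM in all 3 libraries of 1 group and in none of the other, which had to differ. Such members were 6 of 12 cytokine and ligand genes, 6 of 35 interferon-induced genes and 5 of 43 replication genes. They were 4 of 23 receptor-induced factors, 3 of 27 activation receptors and 3 of 13 regulatory T cell genes. Also among them were 3 of 20 G2/M genes, 3 of 23 G1 regulators, 3 of 26 p53 targets and 2 of 11 AP-1 and NFAT factors. Glycolysis held 2 of 25, lysosome and autophagy 2 of 50 and the endoplasmic reticulum list 1 of 37.

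**Figure D1:**
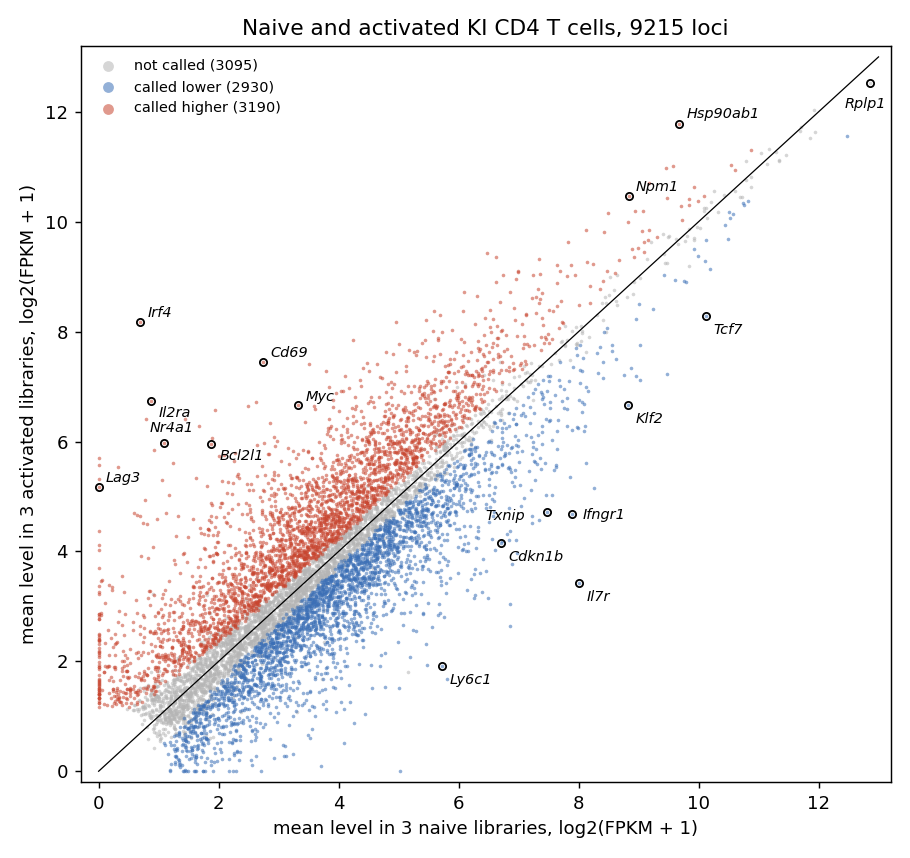
Mean level of each of the 9215 loci in the 3 naive (horizontal axis) and 3 activated KI libraries (vertical axis), both as log2(FPKM + 1); red loci were called higher, blue ones lower and grey ones not called, and the line marks equal levels. Irf4 and Il2ra sit far above the line and Il7r and Ly6c1 far below it, while Rplp1, the highest locus in both groups, lies close to it.

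Rplp1, a ribosomal stalk protein, had the highest mean level in naive cells (7424 ± 791 FPKM, SD, n = 3) and in activated cells (5909.8 ± 239.6 FPKM, SD, n = 3), and its difference of -0.32 did not pass the test, though it did without naive replicate 3 (adjusted p = 0.0316), in the fit of 12 libraries (0.0236), without the intensity trend (0.0312), at a limit of 5 FPKM (0.0469) and with an equal sum of levels (0.000873). In naive cells Tpt1 and Rpl19 came next, and in activated cells Eef1a1, the elongation factor, and Hsp90ab1, a cytosolic chaperone. The chaperone entered the top 3 through a rise: Hsp90ab1 read 758, 763 and 938 FPKM in naive and 3153, 3481 and 3924 FPKM in activated libraries, a log2 difference of 2.10 ± 0.14 (SE, adjusted p = 5.25e-06). Tpt1, a translation-linked protein, fell from 5722 ± 348 FPKM to 3029.8 ± 385 FPKM (SD, n = 3).

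Of the 36 gene lists described here, the highest median belonged to transcription factors and feedback regulators that T cell receptor signals induce. Of 23 tested members of that list 21 rose and 1 fell, with a median log2 difference of 2.98 against 0.00 over all loci. Irf4 (GRCm39, as are all positions of loci, chr13:30933041-30950959, plus strand), a factor whose level follows the strength of the receptor signal, had the largest rise of all loci. It was at 0.455, 1.01 and 0.367 FPKM in the naive libraries and at 305, 299 and 258 FPKM in the activated ones. The groups were far apart, with a log2 difference of 7.50 ± 0.15 (SE). Nr4a1 (chr15:101152150-101172676), an orphan nuclear receptor used as a reporter of receptor signalling, went from 0.972, 1.69 and 0.717 FPKM to 67.99, 57.99 and 59.2 FPKM. Egr3, a zinc finger factor, had no line in the 3 naive libraries and read 17.4, 21.5 and 20.2 FPKM in the activated ones. Its relative Egr1 rose by 2.74 on the log2 scale. Myc (chr15:61857240-61862102), the factor that drives growth and biosynthesis, was already present in naive cells at 8.604, 8.25 and 10.3 FPKM and reached 85.3, 99.05 and 118 FPKM. Every activated library exceeded every naive one for these genes.

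The list also holds signalling inhibitors. Spry1, a brake on MAP kinase signalling, had no line in the naive libraries and read 37.5, 46.4 and 33.3 FPKM in activated ones. Dusp5, a nuclear phosphatase of ERK, went from 9.72, 10.5 and 10.96 FPKM to 180.3, 177 and 150.0 FPKM, a log2 difference of 3.90 ± 0.10 (SE, adjusted p = 2.01e-07). Bhlhe40, a repressor that shapes cytokine output, rose by 5.05 ± 0.32 (SE). Pim1, a kinase gene commonly taken as induced by cytokines, was at 95.1, 96.5 and 85.4 FPKM in naive and 107, 89.9 and 79.6 FPKM in activated libraries, and the groups overlapped (log2 difference -0.01, adjusted p = 0.94). Nfkbiz was the member that fell, by 0.40, and the call was lost without naive replicate 3 (adjusted p = 0.0569).

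**Figure D2:**
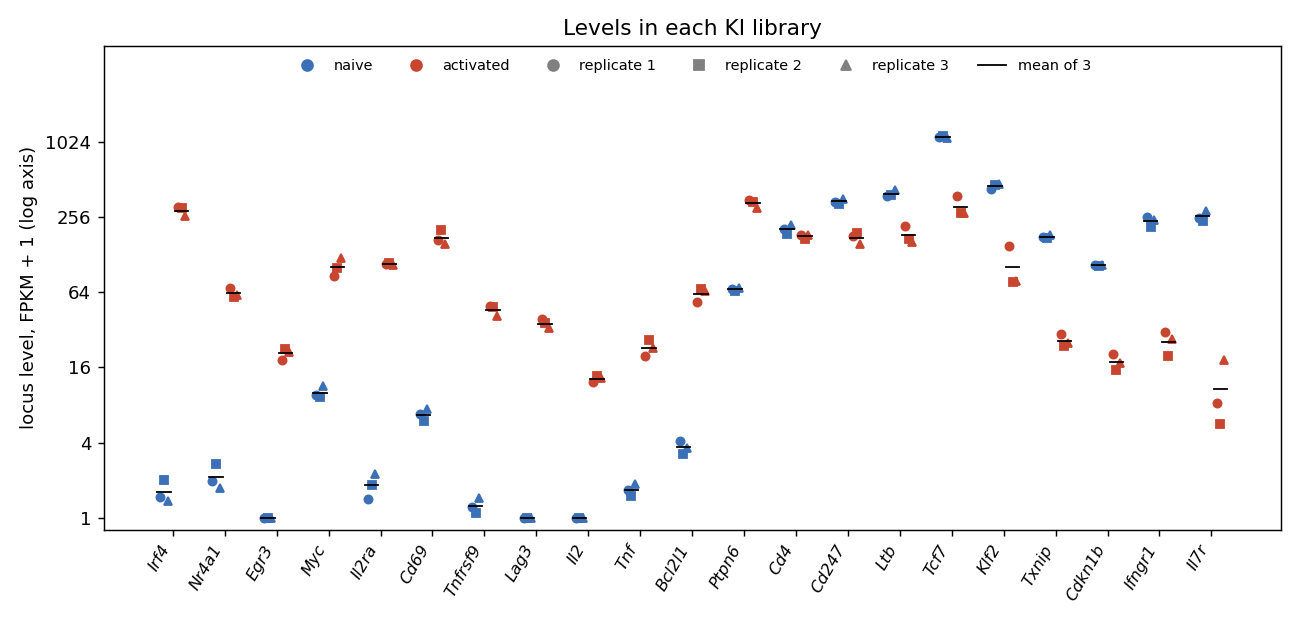
Level of 21 genes in each of the 6 KI libraries, as FPKM + 1 on a log axis; blue marks are naive and red marks activated libraries, circles, squares and triangles are replicates 1, 2 and 3, and bars are means of 3. From Irf4 to Ptpn6 every red mark lies above every blue one, at Cd4 the groups lie close to each other, and from Cd247 to Il7r every red mark lies below every blue one.

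Factors of the AP-1, NFAT and NF-kB families responded less evenly. At 16 h Fos was low, at 0.31, 0.0926 and 0.205 FPKM in naive and 6.01, 4.12 and 3.77 FPKM in activated libraries. Batf, an AP-1 partner of IRF4, rose from 10.4 ± 0.837 FPKM to 28.9 ± 0.358 FPKM (SD, n = 3). Nfatc3 fell by 1.14 on the log2 scale and Nfatc2 did not pass the test (-0.01, adjusted p = 0.912). Over both lists, 6 of 11 AP-1 and NFAT members rose and 1 fell, and 11 of 22 NF-kB members rose and 6 fell. The higher NF-kB members included subunits and direct feedback genes. Nfkb2 went from 18.7, 18.01 and 18.2 FPKM to 103, 101 and 84.4 FPKM, Nfkb1 rose by 1.76 and Relb by 1.68, and the inhibitor Nfkbia went from 77.4, 76.4 and 82.7 FPKM to 166, 151 and 136 FPKM (log2 difference 0.93, adjusted p = 5.35e-05). The kinase subunit Ikbkb and the deubiquitinase Cyld, which ends NF-kB signals, were lower, Cyld at 31.1, 29.9 and 26.04 FPKM in naive and 13.6, 12.3 and 13.6 FPKM in activated libraries.

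The NF-kB site is shown in the promoter of Nfkbia, a standard feedback target of the pathway. This gene is the member with the largest rise whose match lies before the start in a stretch outside annotated exons. RefSeq promoters (GRCm38.p6, 250 bases before to 50 bases after a start) were searched on both strands for the NF-kB consensus in the form that stands in capitals in the Nfkbia stretch and in one other form of the same length. Of 23 promoters of 17 matched genes of the NF-kB list, 4 (17.4%) held a match, against 0.305% of 8858 promoters of member loci and 0.244% of all 32851 promoters. The cytokine list had 2 of 13 (15.4%). A match is a description of letters and not a site or a cause. The stretch covers GRCm38.p6 chr12:55492648-55492747 on the minus strand, with the match, 19 bases before the start and read on the opposite strand, in capitals:
Nfkbia: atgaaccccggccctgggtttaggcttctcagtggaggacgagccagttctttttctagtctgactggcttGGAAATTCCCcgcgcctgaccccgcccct

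Receptors that appear on activated T cells were mostly higher. Of 27 tested, 23 rose and 2 fell, with a median log2 difference of 2.04. Il2ra (chr2:11647568-11698004), which makes the high-affinity IL-2 receptor, went from 0.419, 0.843 and 1.25 FPKM in naive to 107, 108 and 104 FPKM in activated libraries. The activated libraries lay within a narrow range, and the log2 difference was 5.89 ± 0.16 (SE). Cd69, an early receptor that holds cells in lymphoid tissue, went from 5.75, 4.97 and 6.36 FPKM to 167, 199 and 154 FPKM. Tnfrsf9, which encodes the costimulatory receptor 4-1BB, went from 0.212, 0.0946 and 0.443 FPKM to 48.6, 47.7 and 40.05 FPKM. Both costimulatory and inhibitory receptors were among the higher genes. Lag3, an inhibitory receptor for MHC class II, had no line in the naive libraries and read 37.9, 35.01 and 31.8 FPKM in activated ones. Ctla4, which competes with CD28 for its ligands, went from 3.19, 3.73 and 4.45 FPKM to 40.6, 54.7 and 52.2 FPKM, and Tnfrsf4, which encodes OX40, from 79.9, 63.7 and 90.2 FPKM to 369.6, 438 and 394 FPKM. With summed starts alone the difference of Tnfrsf4 was 0.06 (adjusted p = 0.766). The transferrin receptor Tfrc, through which dividing cells import iron, rose by 3.71 ± 0.14 (SE, adjusted p = 7.26e-07). The members that fell were Ly6a and Slamf6, and Cd27 (-0.32) and Cd40lg (-0.42) did not pass the test. With quantile normalization or an equal sum of levels both passed and 4 members fell. Cd27 also passed by the largest single event (adjusted p = 0.0390), and Cd40lg with a replicate block (0.0283) and without activated replicate 2 (0.0443) or 3 (0.0483).

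Of 12 cytokine and TNF family ligand genes tested 9 rose and 3 fell, with a median log2 difference of 2.43. With summed starts alone 7 rose and the median was 1.20. Among the 12, 6 passed the level limit through 1 group alone and had to differ, so these counts are a description. Il2, the growth factor of T cells, had no line in the naive libraries and read 11.3, 12.6 and 12.2 FPKM in activated ones. Tnf went from 0.682, 0.478 and 0.856 FPKM to 18.7, 25.3 and 21.7 FPKM, and the chemokine Ccl4 had no line in the naive libraries and read 10.2, 15.6 and 19.8 FPKM in activated ones. The ligands that fell included the most abundant of the list in naive cells: Ltb, the membrane part of lymphotoxin, went from 378, 384 and 418 FPKM to 214, 169 and 160.2 FPKM (log2 difference -1.12, adjusted p = 7.61e-05). Its partner Lta rose by 2.55, and with summed starts alone its difference was -0.51 (adjusted p = 0.349). Cish, a feedback inhibitor of cytokine receptors, went from 0.438, 0.39 and 0.985 FPKM to 25.95, 20.9 and 25.7 FPKM, and Socs2 had no line in the naive libraries and had a mean of 8.33 ± 0.776 FPKM (SD, n = 3) in activated ones. Stat5a rose by 1.06 while its neighbour Stat5b fell by 1.43. Foxp3, the factor of regulatory T cells, was at 2.64, 3.67 and 3.25 FPKM in naive and 12.3, 13.5 and 8.91 FPKM in activated libraries, and 11 of 13 genes of a regulatory T cell list rose and 2 fell. Prdm1, which encodes the effector factor Blimp-1, went from 4.04 ± 0.616 FPKM to 0.149 ± 0.258 FPKM (SD, n = 3).

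Components of the T cell receptor machinery were mostly lower. Of 32 tested, 19 fell and 6 rose, with a median difference of -0.42. The CD3 chain gene Cd3g was at 448, 497 and 589 FPKM in naive and 395, 348 and 349 FPKM in activated libraries. Cd247, the zeta chain that carries most of the receptor's signalling motifs, went from 339, 324 and 358 FPKM to 179, 188 and 155 FPKM. Themis, a regulator of receptor signals, fell furthest in the list, from 23.4, 23.3 and 23.7 FPKM to 4.26, 4.397 and 5.49 FPKM (log2 difference -2.10, adjusted p = 2.04e-06). The diacylglycerol kinase Dgka, which dampens receptor signals, fell by 1.56, a call that summed starts alone did not give (adjusted p = 0.479). Against this direction, Ptpn6, which encodes the phosphatase SHP-1, rose from 66.9, 64.1 and 68.7 FPKM to 349.7, 337 and 303 FPKM. Zap70, the kinase that binds the zeta chain, rose by 1.38, and Ptprc, which encodes the phosphatase CD45, by 0.83. Lck, Cd3e and Cd3d fell by 0.24, 0.33 and 0.34. The call of Lck was lost without any 1 of the 6 libraries (adjusted p of 0.0555 to 0.0754), that of Cd3e without naive replicate 1 or 3 or activated replicate 2 or 3 (0.0516 to 0.117), and that of Cd3d without activated replicate 2 (0.0603). Cd4 itself differed by -0.19 and did not pass the test (adjusted p = 0.103), although it was called lower with quantile normalization (-0.44) and with an equal sum of levels (-0.33).

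Genes that keep naive T cells at rest were mostly lower. Of 32 tested, 26 fell and 3 rose, and the median difference was -1.20. Il7r (chr15:9503536-9530474, minus strand), the survival receptor of naive cells, had the largest fall among loci with a checked gene name. It was at 251, 238 and 284 FPKM in naive libraries and 7.34, 4.59 and 17.2 FPKM in activated ones, with activated replicate 3 the highest of its group, and the log2 difference was -4.77 ± 0.36 (SE, adjusted p = 1.14e-05). Klf2, the factor that keeps up homing receptors, went from 431, 459 and 469 FPKM to 148, 76.3 and 77.01 FPKM. Activated replicate 1 kept the highest level of its group. Tcf7, the factor TCF-1 of naive and memory cells, went from 1124, 1136 and 1093 FPKM to 376, 276 and 277 FPKM and remained abundant. Cdkn1b, the cell cycle inhibitor p27, fell from 104 ± 1.59 FPKM to 16.8 ± 2.65 FPKM (SD, n = 3). Txnip, an inhibitor of glucose uptake, fell by 2.77 and Pik3ip1, a brake on PI3 kinase, by 3.12. Rflnb, a filamin-binding protein, went from 118, 107 and 121 FPKM to 5.96, 4.09 and 11.6 FPKM (log2 difference -3.93). The 3 members that rose were Id3, an inhibitor of E proteins (5.63 ± 1.104 to 46.1 ± 2.95 FPKM, SD, n = 3), the homing receptor gene Ccr7 (118, 119.9 and 135 FPKM in naive and 279, 242 and 203 FPKM in activated libraries) and Bach2, by 0.35, a call lost without naive replicate 3 or activated replicate 2 (adjusted p = 0.0540 and 0.0713). Of 12 integrin and homing receptor genes 5 rose and 6 fell, with a median of -0.42. Itga4 and Itgb7, which together form the gut homing integrin, fell by 2.83 and 2.12, and Cd44, a receptor for hyaluronan, rose by 1.68.

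Several of the largest differences lay outside the lists. Fam78a went from 64.8, 52.1 and 48.9 FPKM to 1.96, 2.65 and 2.07 FPKM. Ly6c1, a surface protein of subsets of naive and memory cells, went from 56.5, 56.3 and 43.7 FPKM to 2.24, 1.62 and 4.44 FPKM, and Cd7 fell by 3.56. Ifngr1, the ligand-binding chain of the interferon gamma receptor, went from 255, 211 and 243 FPKM to 29.5, 18.6 and 26.1 FPKM, with no overlap (log2 difference -3.23 ± 0.16, SE, adjusted p = 2.00e-06). Tmem71, Tdrp, Smpdl3a, Selenop, Acss1, Pou6f1 and Thada had log2 differences of -3.35, -3.17, -3.15, -3.11, -3.25, -3.06 and -3.05. Among the largest rises outside the lists, Marcksl1 went from 2.42, 1.62 and 1.06 FPKM to 95.3, 83.6 and 72.4 FPKM and Acot7, an acyl-CoA hydrolase, from 1.91, 2.48 and 2.17 FPKM to 71.7, 75.4 and 84.9 FPKM. Ybx3 rose by 4.63 and Cdca7 by 4.32.

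The machinery that makes ribosomes rose almost as a block. Of 58 ribosome biogenesis genes 57 rose, with a median difference of 1.91. The remaining gene, Polr1a, the large subunit of RNA polymerase I, did not pass the test (0.24, adjusted p = 0.0536), though it did without naive replicate 3 (adjusted p = 0.0417). It also passed with summed starts alone (0.0156), by the largest single event (0.0360), at a limit of 5 FPKM (0.0468) and in the fit of 12 libraries (0.0470). Mybbp1a, a nucleolar protein, had the largest rise, from 16.995, 16.5 and 15.2 FPKM to 122, 154 and 158 FPKM. Ncl, which encodes nucleolin, went from 155, 146 and 179.9 FPKM to 514, 686 and 726 FPKM, and Npm1, which encodes nucleophosmin, from 422, 430.5 and 516 FPKM to 1187, 1443 and 1600.0 FPKM. Fbl, the methyltransferase fibrillarin of box C/D particles, rose by 2.43 ± 0.21 (SE) and its partner Nop56 by 2.14 ± 0.11 (SE). The lowest activated level lay in activated replicate 1 for 55 of the 58 genes, against 35.8% of all loci. Even so, its values for Mybbp1a, Ncl and Npm1 exceeded those of every naive library.

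E-boxes, the letters CACGTG bound by MYC and its relatives, were counted in the same promoters. Of 62 promoters of 53 matched biogenesis genes 12 (19.4%) held the letters, against 10.8% of promoters of member loci and 7.15% of all promoters. Lists of either direction had higher shares. These were 33.3% for lysosome and autophagy genes, which leaned lower, and 25% for p53 targets, of which 14 of 26 rose. AP-1 and NFAT factors, of which 6 of 11 rose, had 23.1% (3 of 13 promoters). Among lists that mostly rose, the share was 24.1% for cholesterol and fatty acid synthesis, 23.8% for initiation factors and 20% for aminoacyl-tRNA synthetases. Loci that were higher by at least 1 on the log2 scale had 14.1%, lower ones 9.80%. The stretch of Nop2, which encodes an rRNA methyltransferase and rose by 2.44, is shown because it is the member with the largest rise whose E-box lies before the start and outside annotated exons. It covers GRCm38.p6 chr6:125131783-125131882 on the plus strand, with the E-box, 54 bases before the start, in capitals:
Nop2: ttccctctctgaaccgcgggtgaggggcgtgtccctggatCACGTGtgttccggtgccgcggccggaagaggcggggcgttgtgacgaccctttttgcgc

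Protein components of the ribosome itself were mixed. Of 71 cytosolic ribosomal protein genes 20 rose, 9 fell and 42 did not pass the test. Their median difference was 0.04, and it turned to -0.10 with quantile normalization and -0.11 with an equal sum of levels, where 30 and 29 of them fell. It was also below 0 without naive replicate 1 (-0.01), naive replicate 2 (-0.04) or activated replicate 3 (-0.05). Without naive replicate 3, 27 rose and 10 fell, and without naive replicate 2 or activated replicate 3, 12 rose and 10 fell. Without naive replicate 1, 13 rose and 9 fell. Rps27 fell from 1152, 1086 and 1283 FPKM to 603, 551 and 541 FPKM, while its paralog Rps27l, a p53 target, rose from 9.19, 5.04 and 12.05 FPKM to 53.3, 51.1 and 47.7 FPKM. Ribosomal protein genes have many processed copies in the genome, so reads may be shared and single values are uncertain. Of the mitochondrial set, 62 of 73 mitochondrial ribosomal protein genes rose and 1 fell, with a median of 1.02. Mrps28 went from 6.63 ± 0.674 FPKM to 42.8 ± 3.54 FPKM and Mrpl12 from 29.4 ± 1.41 FPKM to 131 ± 26.4 FPKM (SD, n = 3).

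Of 41 initiation factor genes 35 rose and 2 fell. Eif5a, which needs the polyamine spermidine for its hypusine modification, went from 86.8, 77.3 and 98.6 FPKM to 554, 703 and 807 FPKM, and the helicase Eif4a1 from 119.7, 119.9 and 137 FPKM to 475, 565 and 582 FPKM. The members that fell were Eif4a2 and the translational repressor Eif4ebp2, the latter from 51.3 ± 2.35 FPKM to 23.7 ± 1.14 FPKM (SD, n = 3). Of 33 aminoacyl-tRNA synthetase genes 25 rose and 2 fell, with a median of 1.39. Mars1 rose by 2.07, Iars by 2.03 and Aars by 2.00. The calls of the 2 that fell, Hars2 and Wars2, were not stable: that of Hars2 was lost without naive replicate 1 (adjusted p = 0.0616) and that of Wars2 without naive replicate 2 or 3 or activated replicate 2 or 3 (0.0607 to 0.144). The letters TGATGCAA, a site of the stress factor ATF4, searched on both strands, stood in 4 of 25 synthetase promoters (16.0%), those of Yars, Aars, Iars and Tars, against 0.463% of promoters of member loci and 0.895% of all promoters.

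Respiratory chain genes of the nucleus were mostly higher. Of 70 tested 63 rose and 2 fell, with a median of 0.96. Cox5b, a subunit of cytochrome oxidase, went from 49.4, 50.98 and 47.4 FPKM to 224, 230.2 and 251 FPKM. Cox7a2l, a factor of respiratory supercomplexes, went the other way, from 231, 228 and 297 FPKM to 75.5, 64.5 and 84.4 FPKM (log2 difference -1.74, adjusted p = 1.36e-05), and the other member that fell was Ndufa6.

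Enzymes of serine and folate metabolism and of polyamine synthesis had the largest median among the metabolic lists, at 2.35, with 18 of 20 higher and 2 lower. Srm, spermidine synthase, went from 4.46, 4.07 and 5.29 FPKM to 72.9, 104 and 121 FPKM. Psat1, an enzyme of serine synthesis, went from 1.15, 1.21 and 1.38 FPKM to 25.8, 29.97 and 39.6 FPKM, and Odc1, the first enzyme of polyamine synthesis, from 17.2, 16.5 and 19.7 FPKM to 193, 248 and 249 FPKM. Shmt1, the cytosolic enzyme that takes the one-carbon unit from serine, rose by 3.75, and its mitochondrial counterpart Shmt2 went from 15.8 ± 1.97 FPKM to 120.3 ± 15.5 FPKM (SD, n = 3). Mat2b, a regulatory subunit of methionine adenosyltransferase, fell by 0.91. In this list too the activated libraries were ordered alike, and activated replicate 1 was the lowest for 18 of 20 genes and activated replicate 3 the highest for 17. Purine and pyrimidine synthesis genes followed, with 20 of 24 higher and 2 lower. Cad, which starts pyrimidine synthesis, went from 3.46, 3.83 and 3.85 FPKM to 30.4, 39.3 and 40.8 FPKM, and Impdh2, which commits purines to GTP, rose by 2.28. Dck, a kinase that salvages deoxynucleosides, fell by 1.80.

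Of 25 glycolysis genes tested 16 rose and 2 fell, with a median of 1.13. Ldha, lactate dehydrogenase, went from 127, 123 and 129.7 FPKM to 463, 566 and 612 FPKM, and Hk2, the inducible hexokinase, had no line in the naive libraries and read 7.05, 9.75 and 11.3 FPKM in activated ones. Gapdh had no line in the naive libraries and read 24.9, 101 and 13.7 FPKM in activated ones with a wide spread. This gene has many near-identical copies and its values are uncertain. Of the glucose transporters, Slc2a1 rose from 6.49, 7.22 and 6.38 FPKM to 11.9, 13.9 and 12.9 FPKM and Slc2a3 fell by 0.34, a call lost without naive replicate 1 or 3 or activated replicate 1 or 2 (adjusted p of 0.0811 to 0.0942). Pdk1, a kinase that inhibits pyruvate dehydrogenase, fell from 55.1, 56.4 and 56.4 FPKM to 12.1, 12.9 and 14.4 FPKM, with little spread in either group. Hk1, Gpi1 and Ldhb did not pass the test.

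Sterol synthesis genes were mostly higher. Of 31 cholesterol and fatty acid genes 23 rose and 3 fell, with a median of 1.06. Idi1, an isomerase of the mevalonate pathway, went from 5.07, 5.73 and 4.95 FPKM to 53.4, 60.2 and 66.3 FPKM, and Hmgcs1 and Sqle rose by 2.09 and 2.41. Abcg1, a cholesterol exporter, went from 10.01, 10.2 and 10.7 FPKM to 2.79, 3.502 and 2.51 FPKM, and Acss2, which activates acetate, fell by 1.83.

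Proteasome genes rose nearly throughout. Of 42 subunits and assembly factors 38 rose and 2 fell, and the median difference was 1.30. The rise ran through the 20S core, the 19S cap and the chaperones that build them. Psma5, a ring subunit, went from 26.3 ± 3.33 FPKM to 92.6 ± 10.996 FPKM (SD, n = 3), Psmd14, the deubiquitinase of the cap, from 17.1, 18.5 and 16.7 FPKM to 61.9, 69.1 and 73.5 FPKM, and Pomp, the maturation factor, from 18.1, 18.9 and 24.5 FPKM to 75.7, 75.5 and 87.8 FPKM. The constitutive subunit gene Psmb5 went from 45.1, 44.9 and 46.7 FPKM to 117, 126 and 143 FPKM, whereas Psmb8, its immunoproteasome counterpart, went from 25.3, 24.1 and 22.7 FPKM to 16.1, 15.2 and 18.2 FPKM and Psmb9 from 22.1, 19.5 and 26.9 FPKM to 8.502, 9.03 and 13.998 FPKM. Naive and activated values did not overlap for any of the 3, with log2 differences of 1.47 ± 0.09, -0.52 ± 0.10 and -1.07 ± 0.19 (SE; adjusted p = 4.58e-06, 0.00153 and 0.00123). Psmb10, the third immunoproteasome subunit gene, did not pass the test (-0.18, adjusted p = 0.229), though it was called lower with an equal sum of levels (-0.32, adjusted p = 0.0256). The activator genes Psme1 and Psme2, which interferon also controls, rose by 1.33 and 1.31.

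**Figure D3:**
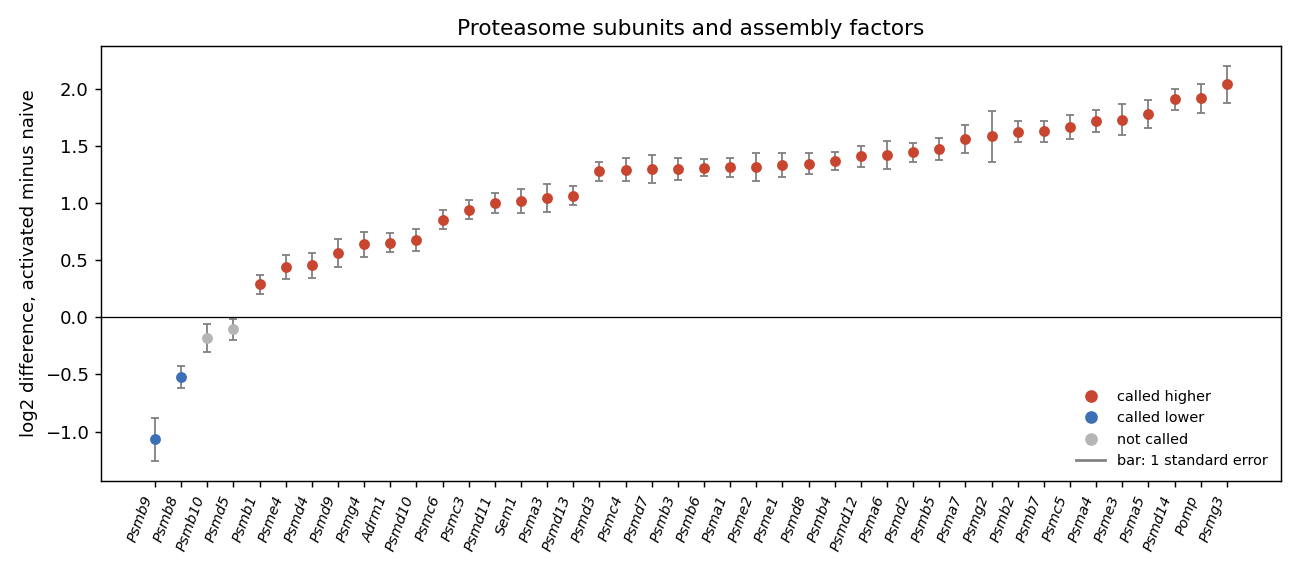
Log2 difference between activated and naive KI cells for 42 proteasome genes, ordered by size, with bars of 1 standard error; red genes were called higher, blue ones lower and grey ones not called. The genes Psmb9 and Psmb8 lie below 0, Psmb10 and Psmd5 near 0, and the remaining 38 above it.

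Chaperones of the cytosol and mitochondria rose at 31 of 39 genes and fell at 4. Hspd1, the mitochondrial chaperonin, went from 28.3, 30.6 and 31.5 FPKM to 266, 264 and 332 FPKM, and Cct3 of the cytosolic chaperonin rose by 2.34. The genes that fell were Dnajb1, Bag3, Hspb11 and Dnajc7. In the fit of 12 libraries the calls of Dnajb1 and Bag3 were lost (adjusted p = 0.0634 and 0.05001). Dnajb1 fell by 0.25, and its call was lost without naive replicate 1 or 3 or activated replicate 2 (adjusted p of 0.0701 to 0.112). In the endoplasmic reticulum 22 of 37 genes rose and 6 fell. Hspa5, the chaperone BiP, went from 33.7, 33.4 and 37.9 FPKM to 189, 204 and 214 FPKM. Trib3, a target of ATF4 and CHOP, went from 16.3, 16.3 and 18.95 FPKM to 1.61, 0.966 and 1.62 FPKM, and Ddit3, which encodes CHOP, fell by 0.79, while Atf4 rose by 0.84.

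Genes of DNA replication were higher. Of 43 genes of the G1/S step and of replication 40 rose and 1 fell, with a median of 1.55. Uhrf1, which brings DNA methyltransferase to the fork, went from 0.526, 0.937 and 0.221 FPKM to 14.4, 22.98 and 35.2 FPKM. Mcm5 of the replicative helicase went from 6.41, 6.82 and 6.45 FPKM to 46.9, 63.01 and 89.3 FPKM, and Pcna, the sliding clamp, from 45.2, 39.9 and 40.3 FPKM to 90.6, 118 and 141 FPKM. Activated replicate 3 was the highest of its group at 42 of the 43 genes and activated replicate 1 the lowest at 39, against 34.1% and 35.8% of all loci. Without activated replicate 1 or replicate 3, 40 and 39 of the 43 were called higher. The only member that fell was Rpa1, and Gins3 and Timeless did not pass the test.

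The letters TTTCGCGC, TTTGGCGC and TTTCCCGC, forms of the E2F site searched on both strands, stood in 12 of 45 promoters (26.7%) of 37 matched genes of this list, against 3.77% of promoters of member loci and 1.84% of all promoters. The list of G1 regulators had 7 of 25 (28%). Loci higher by at least 1 on the log2 scale had 6.07% and those lower by at least 1 had 1.62%. The letters CCAAT stood in 64.4% of the promoters of this list, against 37.8% of those of member loci and 76.5% of those of the G2/M list. The stretch of Uhrf1 is shown as the member with the largest rise. It covers GRCm38.p6 chr17:56304123-56304222 on the plus strand, with the E2F letters, 177 bases before the start, in capitals:
Uhrf1: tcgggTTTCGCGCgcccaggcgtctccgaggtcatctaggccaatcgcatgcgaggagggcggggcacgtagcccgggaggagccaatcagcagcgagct

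Cyclins, kinases and inhibitors of the cell cycle moved in both directions. Of 23 G1 regulators 13 rose and 6 fell. Ccnd2, a cyclin of early G1, went from 15.3, 12.9 and 14.1 FPKM to 100.2, 106 and 114 FPKM, its partner kinase Cdk4 rose by 2.02, and the inhibitor Cdkn1a, which encodes p21, went from 0.315, 0.0819 and 0 FPKM to 12.1, 9.69 and 6.73 FPKM. The pocket protein genes Rbl1 and Rbl2 fell. Genes of mitosis were mixed. Of 20 G2/M genes tested 9 rose and 4 fell, and Plk1 was at 1.002, 1.45 and 0.541 FPKM in naive and 0.466, 1.56 and 0.989 FPKM in activated libraries, with overlapping groups. Top2a reached 4.15, 7.47 and 11.5 FPKM from 0, 0.878 and 0.747 FPKM, and Cdk1 went from 0.581 ± 0.325 FPKM to 1.79 ± 0.13 FPKM (SD, n = 3). Cdc25b and Smc4, both abundant in naive cells, fell by 2.62 and 1.24. With the level limit raised to 5 FPKM, 7 of these genes remained tested, 2 higher and 4 lower.

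Among 12 genes of the BCL2 family, which governs survival, 6 rose and 3 fell. Bcl2l1, which encodes the anti-apoptotic BCL-XL, went from 3.14, 2.21 and 2.65 FPKM to 52.4, 66.4 and 64.6 FPKM (log2 difference 4.08 ± 0.13, SE, adjusted p = 6.51e-07). Mcl1 fell by 0.36, not without activated replicate 2 or 3 (adjusted p = 0.0637 and 0.0530), the pro-apoptotic genes Bid and Bax rose by 1.99 and 1.28, and Bcl2l11, which encodes BIM, did not pass the test (adjusted p = 0.0904, or 0.0416 without activated replicate 1). Of 26 p53 target genes 14 rose and 5 fell. Gadd45b, which also responds to NF-kB, went from 3.204, 1.61 and 4.64 FPKM to 40.8, 39.5 and 32.9 FPKM, whereas Gadd45a and Sesn1 fell by 1.74 and 2.67, and Mdm2 did not pass the test. Mdm2 was called lower with quantile normalization (adjusted p = 0.0236), an equal sum of levels (0.0420), a replicate block (0.0376) and without activated replicate 2 (0.0487). Activated replicate 3 was the lowest of its group at 21 of the 26 genes and at 18 of the 22 NF-kB genes, against 37.1% of all loci.

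Interferon-induced genes were lower in activated cells. Of 35 tested 25 fell and 4 rose, with a median of -0.97. Ifi213, a DNA sensor of the HIN-200 family, went from 27.2, 34.1 and 31.8 FPKM to 2.14, 0.975 and 2.51 FPKM. Irf7, the master factor of interferon production, went from 10.9, 10.9 and 11.9 FPKM to 1.59, 0.811 and 0.608 FPKM (log2 difference -2.64 ± 0.18, SE). Gbp5 went the other way, from 1.75, 1.77 and 2.37 FPKM to 21.4, 19.5 and 28.8 FPKM, as did Bst2, Ifi47 and Gbp2 by 1.18, 0.83 and 0.65. The call of Gbp2 was lost without naive replicate 1 or 2 or activated replicate 1 or 3 (adjusted p of 0.0645 to 0.119). The MHC class I genes fell alongside: of 15 antigen presentation genes 11 fell and 3 rose, the latter being Psme1, Psme2 and Erap1. H2-K1, a classical class I chain, went from 1090.4, 1033 and 1197 FPKM to 694, 576 and 610.4 FPKM, and H2-D1 and the peptide transporter Tap1 fell by 0.84 and 0.77.

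The core of the interferon response element (ISRE), searched on both strands, stood in 17 of 34 promoters (50%) of 27 matched interferon-induced genes and in 4 of 14 promoters (28.6%) of the MHC class I list, against 2.95% of promoters of member loci and 3.44% of all promoters. Promoters of Gbp5, Gbp2 and Bst2, which rose, were among those with a match, as was that of Ifi213, which fell. The stretch of Ifi213, the member that fell furthest, covers GRCm38.p6 chr1:173599283-173599382 on the minus strand, with the match, 63 bases before the start and read on the opposite strand, in capitals:
Ifi213: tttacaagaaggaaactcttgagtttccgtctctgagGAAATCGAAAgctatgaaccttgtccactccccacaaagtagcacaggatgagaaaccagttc

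Lysosome and autophagy genes leaned to lower levels, with 23 of 50 lower and 14 higher. Ctsd, the main aspartic protease of lysosomes, fell from 119, 120.2 and 147 FPKM to 35.9, 32.1 and 39.5 FPKM and Ctsz rose by 1.39. Among splicing genes 49 of 61 rose and 6 fell. Snrpd1 of the core particle rose by 2.75, while the kinases Clk1 and Clk4, which phosphorylate SR proteins, fell, Clk1 from 187, 206 and 203 FPKM to 68.7, 53.2 and 49.2 FPKM.

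**Figure D4:**
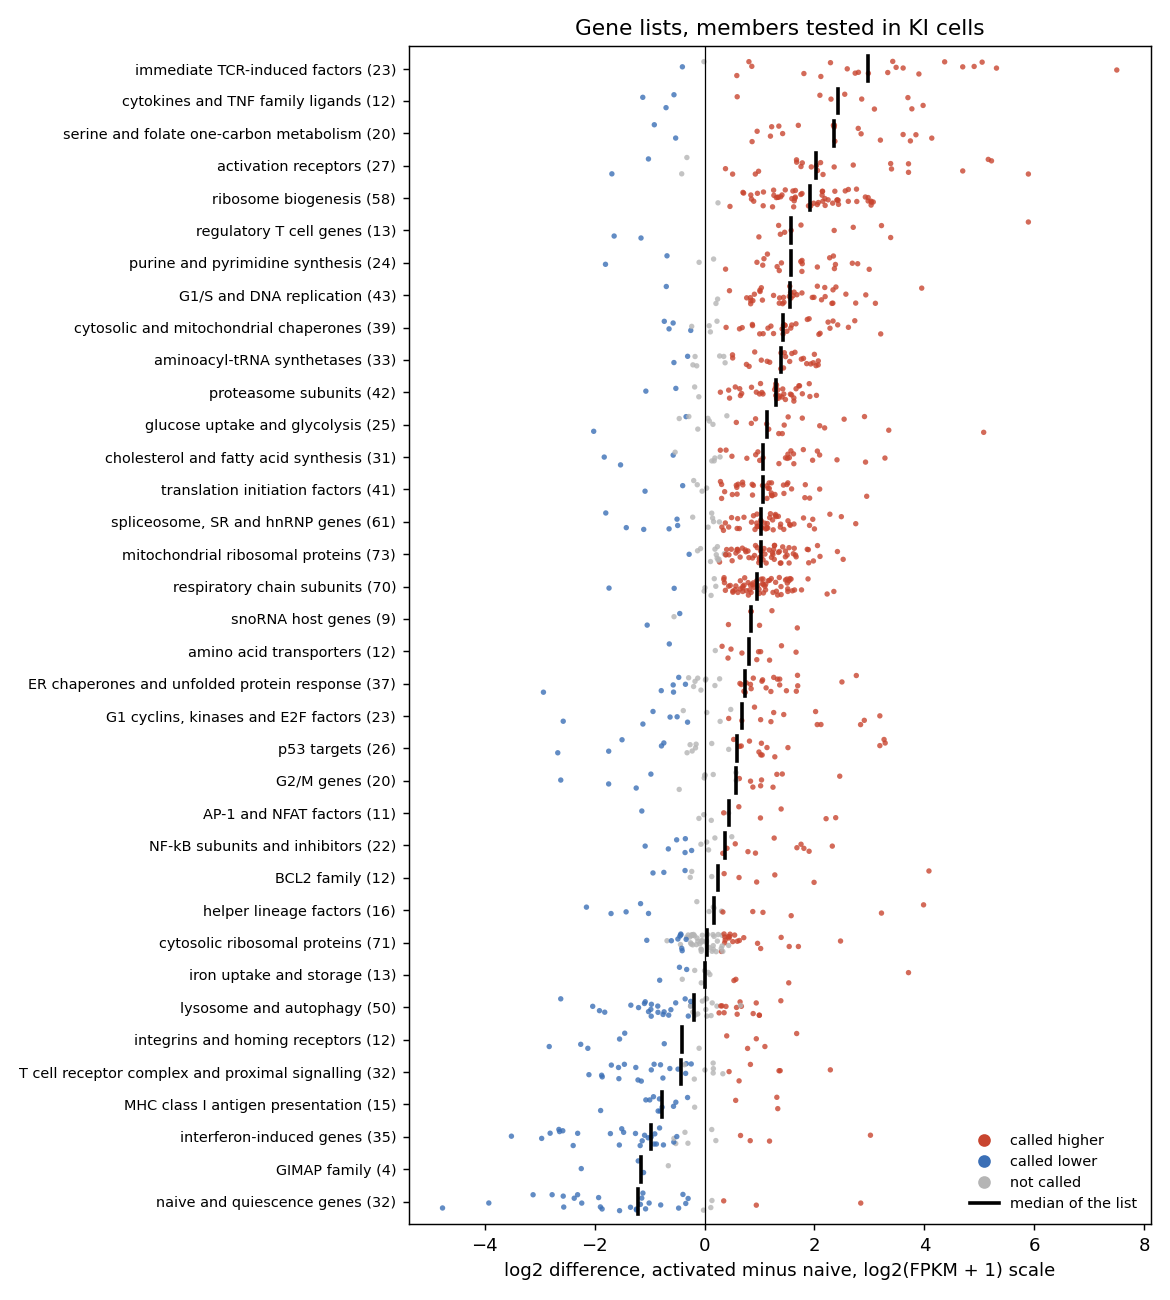
Log2 difference between activated and naive KI cells for the tested members of 36 gene lists (number tested in brackets), each point 1 gene, red called higher, blue called lower and grey not called; black bars are list medians. The medians run from 2.98 for receptor-induced factors to -1.20 for naive and quiescence genes, with cytosolic ribosomal proteins at 0.04.

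The transcript starts listed for each locus showed changes within loci. At 824 member loci at least 2 starts had a mean of at least 5 FPKM in a group, and at 44 of these 1 start was higher and another lower by at least 2-fold between the group means without overlap. The loci named next were chosen after their values were seen, and the starts were not tested. Of these Ccnd3 is among the 44, while Nfatc1, Lef1 and Tcf7 do not meet that rule. Nfatc1 (chr18, minus strand) encodes NFATc1, which has an inducible upstream promoter and a constitutive one downstream. Its upstream start, at position 80755981, read 1.33, 2.74 and 0 FPKM in naive and 35.6, 34.6 and 25.2 FPKM in activated libraries. The downstream start, 4593 bases further along, read 32.8, 32.1 and 32.4 FPKM and 20.3, 21.6 and 20.6 FPKM. The upstream share of all starts was 0 to 7.88% in naive and 55.02 to 63.03% in activated libraries, while the level of the whole locus rose by 0.62 on the log2 scale (-0.04 by the largest single event). Lef1, a partner of TCF-1, had 3 starts. The first went from 142, 144 and 130.5 FPKM to 49.7, 29.8 and 33.7 FPKM. The last, 47343 bases on, read 75.97, 96.2 and 101 FPKM in naive and 4.28, 2.44 and 3.79 FPKM in activated libraries. Its second start, 3609 bases after the first, read 32.4, 23.7 and 54.1 FPKM and 54.9, 72.4 and 61.1 FPKM, so that the highest naive and the lowest activated value nearly touched. Ccnd3, another early cyclin, exchanged starts. The upstream one went from 53.6, 47.4 and 56.3 FPKM to 16.4, 10.5 and 11.9 FPKM and one 88625 bases downstream from 6.94, 7.26 and 2.74 FPKM to 31.8, 32.4 and 38.2 FPKM, while the locus level fell by 0.31, a call lost without activated replicate 2 (adjusted p = 0.0511). At Tcf7 both main starts were lower, the second going from 267, 328 and 392 FPKM to 69.1, 21.9 and 20.2 FPKM.

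**Figure D5:**
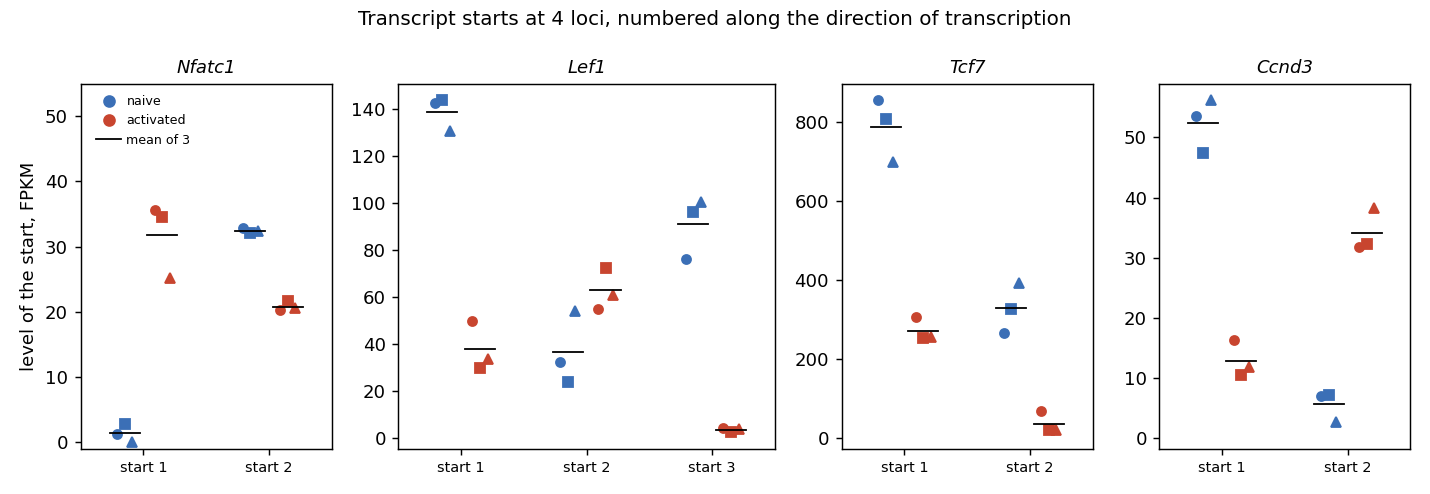
FPKM of the transcript starts of Nfatc1, Lef1, Tcf7 and Ccnd3 in the 6 KI libraries, numbered along the direction of transcription; blue marks are naive and red marks activated libraries, shapes are replicates (circle 1, square 2, triangle 3) and bars are means of 3. Start 1 of Nfatc1 and start 2 of Ccnd3 are higher in every activated library, and start 3 of Lef1 is lower in every one.

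The KIKO libraries, which the KI comparison did not use, gave the same direction at most of these loci. In a fit of all 12 libraries, 4514 of the 9215 loci (49.0%) differed between activated and naive KIKO cells, 2380 higher and 2134 lower. Naive KIKO replicate 2 listed 9771 loci, against 10916 and 10798 in naive KIKO replicates 1 and 3. Without it 2309 loci were higher and 2075 lower. Of the loci higher in KI cells 88.5% had a higher mean in activated KIKO cells, and of the lower ones 87.7% had a lower mean. In KIKO cells 1946 and 1731 of them were called the same way. Against this, 42 loci higher in KI cells were lower in KIKO cells and 76 the reverse. Ly6a, which fell by 1.69 in KI cells, rose by 1.12 in KIKO cells. Beside the KI differences of 3.95 for Uhrf1 and 3.11 for Mcm5 stood KIKO differences of 1.03 and 0.66, and for Irf4 and Il2ra the KIKO differences were 6.98 and 5.37. The differences between the genotypes were not tested here.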

How the data were processed

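CD4 T cells from mouse spleen were sequenced from 15 ng of total RNA with poly(A) selection and a stranded SMART-seq kit, per the labels' protocols. FastQC 0.11.9, cutadapt 2.9 and HISAT2 2.2.0 are named in the submitters' processing notes. The FPKM per transcript event were deposited by the authors, by a program not given in the sources used here. Coordinates are GRCm39.

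Repeated lines were dropped and locus levels made as the report describes. Levels were compared with limma 3.58.1 in R 4.3.3 on log2(FPKM + 1), with an intensity trend, 2-sided, with Benjamini-Hochberg adjustment over 9215 loci and a threshold of 0.05. KIKO values came from 1 fit of all 12 libraries. The fitting script was tested on simulated data. Read depth is unknown and no reads could be counted, so error is the spread between 3 libraries. FPKM are scaled to each library's own total.

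Gene names were compared with exon and intron lengths of GENCODE M21, a check added after the data were seen. The loci named by size were the 15 each way with the largest difference among loci that were called, did not overlap and had a mean of at least 5 FPKM in a group. Other names are members of the gene and marker lists, and a few members are not reported here. The members and lists were chosen with earlier results of these data known, and the starts, the order of activated libraries and the promoter stretches were chosen after values were seen. Alternatives covered the pseudocount, filter, scaling, locus level, libraries in the fit, trend, replicate block and leaving out each library.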

Additional observations from a re-analysis of the deposited data

How the results depend on the processing

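Leaving out 1 library at a time gave 2889 to 3152 higher and 2615 to 2913 lower loci in KI cells, and 1913 to 2403 higher and 1636 to 2153 lower loci in KIKO cells. Asking for a log2 difference of at least 1 left 1399 higher and 1066 lower. Quantile normalization gave 2974 higher and 3196 lower loci and an equal sum of levels 2708 and 3426, which turned the split towards lower loci. The counts of called loci stayed within 1.5 times under the other alternatives run. Of 1296 counts over gene lists 48 moved by more than 1.5 times. Of 204 named genes 175 kept their call in every one of up to 18 alternatives that gave a value, and 10 values were missing because the gene did not pass the limit of 5 FPKM. Lta turned to -0.51 with summed starts only and Nfatc1 to -0.044 with the largest single event; the cause was not tested.

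With the replicate number as a block, 3190 loci were higher and 2943 lower. The numbers are not shown to pair the libraries: deviations of same-numbered naive and activated libraries correlated at 0.0635, 0.0813 and 0.121 across loci, each library correlating best with its own number.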
